A study of Mus musculus with 9 samples.

Results

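Of 45491 Rad21 sites on chromosomes 1 to 19, 11330 were bound in pre-B cells and DP thymocytes, with no peak called in DN thymocytes. These sites, called pre-B/DP sites here, were found by joining peaks of the 3 Rad21 lists that overlapped by 1 bp or more and keeping the joined sites with that pattern of calls. The sites were chosen by the peak calls of the 3 Rad21 lists. They were 24.9% of all joined sites and 57% of the 19876 sites with a pre-B and a DP peak. The DN list is the shortest, and with the other 2 cut to its length 973 such sites were left, 6.48% and 16.2% of the totals counted in those lists. The remaining 8546 of the 19876 also had a DN peak and are called shared sites. Since those calls made the selection, the counts describe the lists and test nothing.

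The series profiled the insulator protein CTCF and the cohesin subunit Rad21 by ChIP-seq in developing lymphocytes of C57BL/6 mice, each antibody and cell type being represented by a single library. Pre-B cells came from RAG-/-µ+ mice, which carry a rearranged IgM transgene, with bone marrow and spleen given as the tissues and 6 to 14 weeks as the age. DN (CD4-CD8-) thymocytes came from Rag1-/- mice aged 4 to 8 weeks, and DP (CD4+CD8+) thymocytes from Rag1-/- mice of that age with a rearranged TCRb transgene. The DN and DP libraries thus also differ by that transgene. CTCF lists were used for the same pre-B cells and for RAG1-/- pro-B cells from mice of 6 to 14 weeks, cultured for 7 days with the cytokine IL7. All of the mice were RAG-deficient, the animals behind each library are not given in the sources used here, and the pre-B CTCF and Rad21 peaks were called against the same input. With 1 library for each condition there was no spread between animals to test against. Intervals below are exact 95% intervals that cover counting error only.

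Cohesin is a ring that holds DNA and extrudes loops, and Rad21 closes that ring. CTCF bound to its motif halts cohesin and so anchors loops, while cohesin is also found at active promoters and enhancers that lack CTCF. In lymphocytes such loops bring distant V genes near the D and J genes during assembly of the antigen receptor genes, at the DN stage for TCRβ and the DP stage for TCRα.

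The sequences of several pre-B/DP sites are given first, to show what a match to the CTCF motif looks like at them and, for contrast, a site without a CTCF peak. They are from mm9 (NCBIM37), 5′ to 3′ on the strand of the motif, and capitals mark the best match to the authors' de novo CTCF consensus of 12 bases with 50 bases on either side. The first 2 are among the 20 highest-ranked pre-B/DP sites, in introns of Arhgap25 (chr6:87463508-87463619, plus strand, 1 mismatch) and Ccdc63 (chr5:122564378-122564489, minus strand, 0 mismatches). The next 2 lie in the Igh locus, 62165 bp from Ighm on its V gene side (chr12:114723431-114723542, plus strand, 2 mismatches) and 34728 bp from Ighv11-2 (chr12:115251233-115251344, plus strand, 0 mismatches). The last has Trav3d-3 as its nearest V gene in the TCRα/δ locus (chr14:53591991-53592102, minus strand, 0 mismatches).
Arhgap25 intron: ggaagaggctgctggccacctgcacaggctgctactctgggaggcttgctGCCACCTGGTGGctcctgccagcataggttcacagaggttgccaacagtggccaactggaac
Ccdc63 intron: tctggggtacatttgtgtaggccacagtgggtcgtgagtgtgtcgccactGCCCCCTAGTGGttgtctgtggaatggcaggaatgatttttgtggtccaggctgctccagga
Igh, V gene side of Ighm: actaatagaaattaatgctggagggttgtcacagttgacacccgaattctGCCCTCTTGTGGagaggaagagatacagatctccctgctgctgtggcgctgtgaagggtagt
Igh, near Ighv11-2: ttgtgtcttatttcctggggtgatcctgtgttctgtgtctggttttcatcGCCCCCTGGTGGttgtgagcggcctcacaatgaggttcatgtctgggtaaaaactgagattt
TCRα/δ, nearest Trav3d-3: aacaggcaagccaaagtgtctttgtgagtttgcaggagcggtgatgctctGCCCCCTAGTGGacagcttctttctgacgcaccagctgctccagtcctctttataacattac

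A contrasting site, chosen after its values were seen, is the highest-ranked pre-B/DP site with no CTCF peak in either list. It lies between genes, 96935 bp from the start of Tomm20, and the 300 bases around its midpoint (chr8:129371739-129372038, plus strand) hold 2 different E boxes, CAGGTG and CAGCTG, in capitals.
Site near Tomm20: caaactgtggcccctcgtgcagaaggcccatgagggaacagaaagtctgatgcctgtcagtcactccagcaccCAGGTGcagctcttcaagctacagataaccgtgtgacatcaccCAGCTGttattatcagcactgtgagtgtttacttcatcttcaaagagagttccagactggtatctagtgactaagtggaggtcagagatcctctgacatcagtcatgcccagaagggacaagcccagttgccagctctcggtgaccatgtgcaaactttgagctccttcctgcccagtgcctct

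Pre-B/DP sites ranked in the middle of both lists in which they were called. Each peak was placed by its percentile, the share of its own deposited list with a lower MACS score, because scores from different libraries are not on 1 scale. The median percentile was 48.1 in the pre-B list and 51.0 in the DP list. Shared sites had medians of 82.3 and 84.8, and a median of 54.0 in the DN list. The pre-B and DP percentiles of a pre-B/DP site were only loosely tied, with a Spearman correlation of 0.30 across the 11330 sites against 0.55 across the shared sites, given as a description because neighbouring sites share libraries and depth.

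The DN list was the shortest of the 3, at 9701 peaks against 30488 for pre-B cells and 36743 for DP thymocytes. It also ended at the highest score, 86.45 against 59.74 and 57.72. Whether a DN signal below that end could account for a missing DN call was examined by rank. Where the lower of the 2 percentiles was below 10, 91.3% of sites with a pre-B and a DP peak had no DN peak (1629 of 1784, interval 89.9 to 92.6%). The share fell in every further band of 10 points, through 73.9% between 40 and 50 and 31.3% between 70 and 80, to 2.68% above 90 (48 of 1790, interval 1.98 to 3.54%). Ranked by 1 list alone, 9.73% (pre-B) and 10.9% (DP) lacked a DN peak above 90. Of the pre-B/DP sites, 8.59% (973) had both peaks among the top 9701 of their lists, compared with 58.8% of the shared sites.

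**Figure D1:**
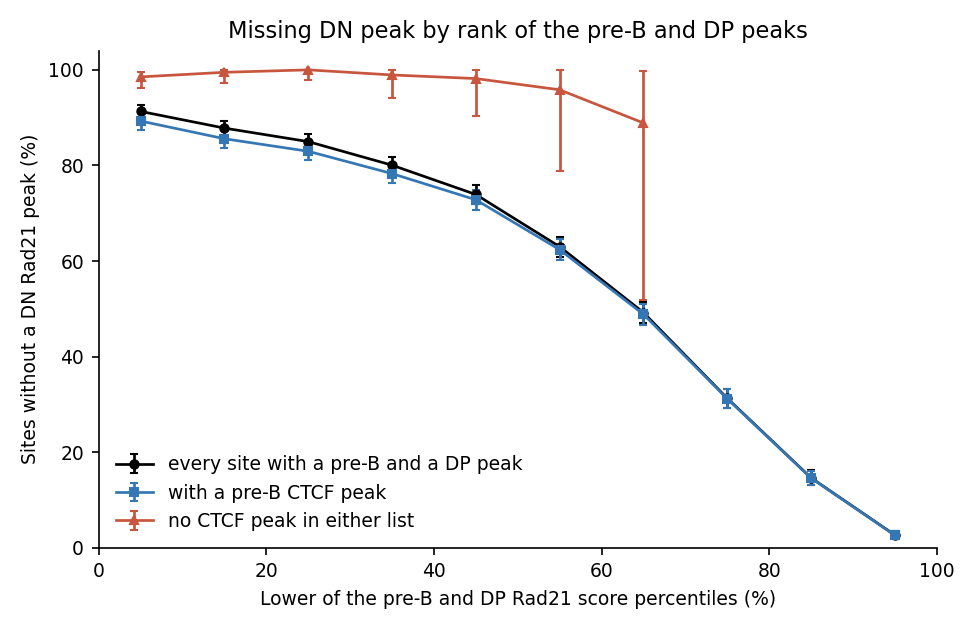
Share of sites without a DN Rad21 peak (y axis, %) in bands of 10 points of the lower of the pre-B and DP score percentiles (x axis, %), with exact 95% intervals as bars. Black circles show every site with both peaks, blue squares those with a pre-B CTCF peak and red triangles those with no CTCF peak, drawn for bands with at least 9 sites. The black line falls from 91.3% to 2.68%, while the red line stays at 88.9% or more up to its last band, which holds 9 sites.

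The DN limit was also set beside the scores. The pre-B score was below 86.45 at 17.2% of the pre-B/DP sites and the DP score at 20.3%, and both stood at or above it at 67.9% (7688 sites). This limit is a DN value and was set beside scores of other libraries only to show where they lie. At shared sites in the lowest band, the DN score had a median of 122, at a median DN percentile of 32.6, and was under 100 at 23.2% (36 of 155). The median DN score lay between 117 and 123 in every band up to 60. It then rose to 279 above 90, where 1.32% were under 100 (23 of 1742). Only sites with a DN score at or above 86.45 enter these medians, so nothing is read from their level in bands where most sites had no DN peak. A DN signal under the limit and no DN signal cannot be told apart from these lists, and neither can fewer DN cells with cohesin at a site and less cohesin in each cell.

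**Figure D2:**
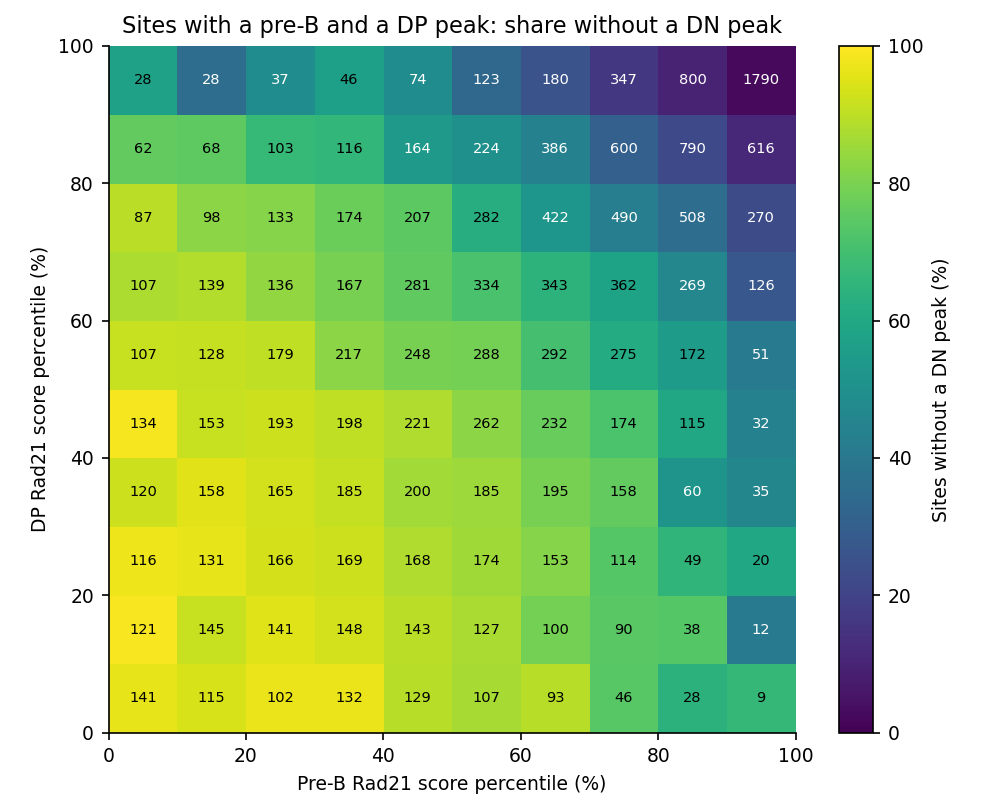
Sites with a pre-B and a DP peak in bands of 10 points of the pre-B percentile (x axis, %) and of the DP percentile (y axis, %), coloured by the share without a DN peak (%), with the number of sites printed in each cell. The share was 96.5% of 141 sites where both ranks were lowest and 2.68% of 1790 sites where both were highest, and it changed along both axes.

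At the edges of the lists, the pre-B/DP site with the lowest pre-B score had 59.76 in the pre-B list and 75.16 in the DP list and lay 597361 bp from the start of Sel1l. The lowest DP score, 57.73, was held by 2 sites, 1 of them 357717 bp from Has2 with a pre-B score of 101.02 and the other at chr15:73287332-73287851 with a pre-B score of 149.61. Just inside the DN list stood a shared site in an intron of Pinx1, with a DN score of 86.45, a pre-B score of 194 and a DP score of 80.2. Another, 4635 bp from the start of Atp5o, had a DN score of 86.49 beside a pre-B score of 889, the 91.3rd percentile. In this site a high pre-B rank went with a DN score at the very end of the list.

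The 20 pre-B/DP sites that ranked highest in both lists had percentiles of at least 93.3. The first, in an intron of Bckdha (chr7:26436045-26437266), which encodes a subunit of the branched-chain keto acid dehydrogenase, had percentiles of 99.3 in the pre-B list and 99.0 in the DP list. Its nearest DN peak was 2745 bp away. The site in Arhgap25, a GTPase-activating protein of blood cells, had 98.3 and 97.8, and its nearest DN peak was 37663 bp away. Another 2 of the 20 lay next to each other in Nsmce1, a subunit of the SMC5/6 complex, with 97.0 and 99.1 at the first and 97.2 and 95.5 at the second. Sites at the transcription start sites of Maz, a zinc finger factor, and of Prss36 were also among the 20, with 96.7 and 94.6 at Maz and 93.6 and 96.3 at Prss36.

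All 20 overlapped a CTCF peak in both CTCF lists. Of the 20, 10 lay between genes, 7 in introns, 2 at start sites and 1 in an exon, and 9 held the consensus at 2 mismatches or fewer. The distance to the nearest DN peak ranged from 1184 to 118791 bp with a median of 13058 bp. Over all pre-B/DP sites this median was 36.6 kb, and 234 sites (2.07%) had a DN peak within 1 kb.

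CTCF lay at most pre-B/DP sites but at fewer of them than of the shared sites. A pre-B CTCF peak overlapped 87.8% (9952 of 11330, interval 87.2 to 88.4%), against 99.5% of shared sites (8505 of 8546) and 64.2% of all joined sites. The share was 78.2% of sites called in pre-B cells alone and 18.2% of those called in DP thymocytes alone. The list from IL7-cultured pro-B cells overlapped 91.3% of pre-B/DP sites and 71% of all joined sites. The gap to shared sites was also there among sites of like rank. With the lower percentile below 10, 71.7% of pre-B/DP sites and 90.3% of shared sites had pre-B CTCF, and between 50 and 60 the shares were 97.1% and 99.7%. Above the 70th percentile both classes had CTCF at 97.9% or more in each band. Where CTCF was present, its own rank was close in the 2 classes from the middle up, with median CTCF percentiles of 71.6 and 71.6 between 50 and 60 and of 87.6 and 86.7 between 80 and 90.

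**Figure D3:**
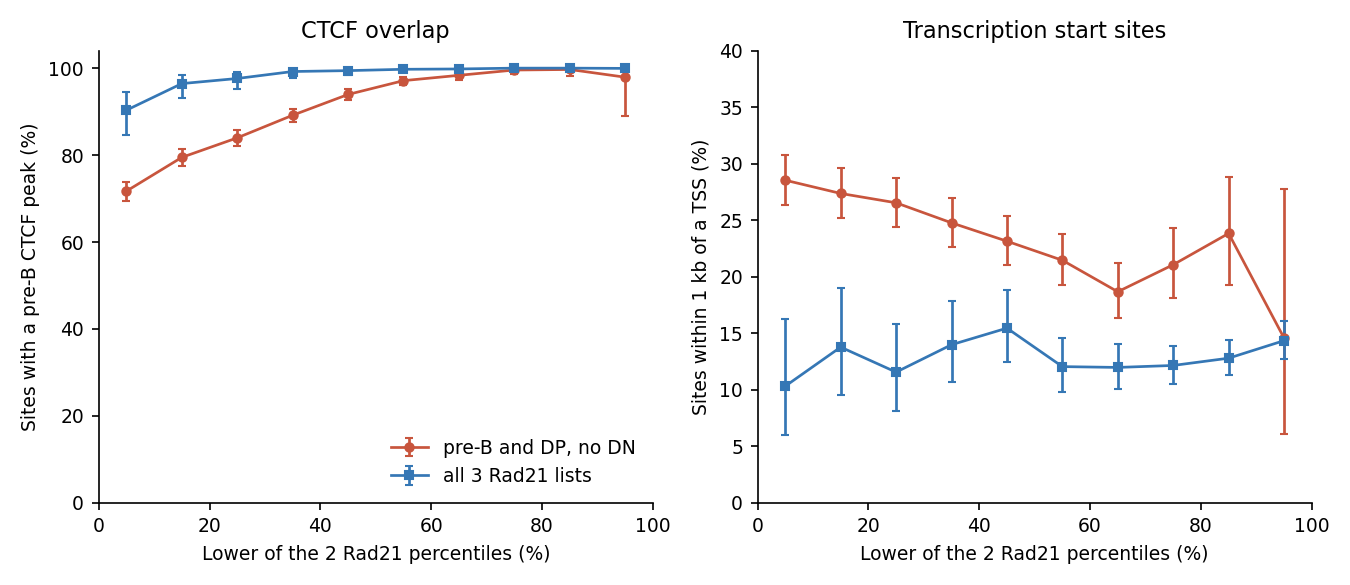
Share of sites with a pre-B CTCF peak (left, %) and within 1 kb of a transcription start site (right, %) in bands of 10 points of the lower of the pre-B and DP percentiles (x axis, %), for pre-B/DP sites (red circles) and shared sites (blue squares) with exact 95% intervals. Pre-B/DP sites had CTCF less often in the lower bands, 71.7% against 90.3% in the lowest, and lay at start sites more often up to the band from 80 to 90, where the shares were 23.8% and 12.8%.

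Sites without CTCF rarely had a DN peak in any band that held more than a few of them. Neither CTCF list overlapped 812 pre-B/DP sites (7.17%), against 9 shared sites (0.105%) and 27.3% of all joined sites. It was 14.8% for sites called in pre-B cells alone and 65.9% for those called in DP thymocytes alone, which also lack a DN peak. Of the 821 sites with pre-B and DP Rad21 and no CTCF, 98.9% lacked a DN peak (interval 97.9 to 99.5%). Among sites with pre-B CTCF the share was 53.9% (9952 of 18457). Between the 40th and 50th percentiles, 54 of 55 sites without CTCF lacked a DN peak, against 72.8% of those with pre-B CTCF, and between the 50th and 60th 23 of 24 against 62.4%. Only 12 sites without CTCF ranked above the 60th percentile, so the comparison could not be carried to the strongest peaks. This split was made after the data had been seen, and no CTCF list of thymocytes was analysed here.

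The 812 sites without CTCF ranked lower in the pre-B than in the DP list, with median percentiles of 19.7 and 47.1, and were wider, with a median width of 902 bp against 690 bp where pre-B CTCF was present. More of them lay at start sites, 51.5% (418) against 21.0%. Those that ranked highest, named after their values were seen, included the site near Tomm20 with percentiles of 88.5 and 88.3. The start of Psmd5, a proteasome assembly factor, had 73.1 and 88.6. The start of Supt4h1, a transcription elongation factor, had 67.7 and 86.0, and that of the immediate early gene Ier5 had 64.1 and 96.6. Another 566 sites had CTCF in the IL7-cultured pro-B list alone, with 47.5% at start sites and a median pre-B percentile of 20.3.

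Pre-B/DP sites lay at transcription start sites (TSSs) more often than shared sites did. Of the 11330 sites, 2777 (24.5%, interval 23.7 to 25.3%) were within 1 kb of a TSS, against 12.99% of shared sites and 22.8% of all joined sites. Introns held 34.7% and the space between genes 36.7%, where 47.7% of the shared sites lay. The difference was present in every band below the 90th percentile, and above it the shares were 14.6% of 48 sites and 14.4%. Read the other way, 71.4% of TSS sites with both peaks lacked a DN peak, against 56.6% in introns and 50.5% between genes.

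The order held among sites with pre-B CTCF alone. Between the 40th and 60th percentiles, 76.6% of such TSS sites and 62.6% of such intergenic sites had no DN peak, and between the 60th and 80th the shares were 51.1% and 35.7%. GC content was examined beside place. Over all ranks, the share without a DN peak was 56.5% at 45% GC or less, 54.3% and 52.1% in the next 2 GC classes and 64.9% above 54.3% GC, so it was highest in the GC-richest class and did not rise steadily with GC. Among sites above 54.3% GC in the 300 bp around the midpoint, 47.8% lacked a DN peak between the 60th and 80th percentiles, against 35.8% of those at 45% GC or less. In those ranks and above 54.3% GC, CTCF sites differed by place, at 55.8% for TSSs (interval 50.5 to 61.0%) and 36.4% between genes (30.8 to 42.3%). At 45% GC or less the values were 43.8% (35 of 80, interval 32.7 to 55.3%) and 34.1%, from 45 to 49.7% GC they were 38.1% and 35.6%, and from 49.7 to 54.3% GC they were 50.9% and 37.5%. The intervals of the 2 places overlapped in each of these 3 lower GC classes, which held 80 to 110 TSS sites each. The part of GC content in the missing DN calls was not tested. By width, 74.6% of sites of up to 613 bp lacked a DN peak, 58.9% from there to 747 bp, 45.7% to 889 bp and 48.7% above it. Between the 60th and 80th percentiles the shares were 45.7%, 38.1%, 36.1% and 43.9%. Width is the span of all joined peaks, a DN peak included, so a DN call can itself widen a site. The part of width in the missing DN calls was not tested.

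Rank was unequal in the 2 lists at many sites. The DP percentile exceeded the pre-B percentile by more than 30 points at 1973 pre-B/DP sites (17.4%), and the reverse held at 1531 (13.5%). Among shared sites these shares were 7.95% and 6.17%. Shared sites ranked higher in both lists, at medians of 82.3 and 84.8, where gaps this wide have less room. The 2 classes were not compared at like rank. The DP-leaning pre-B/DP sites had pre-B CTCF at 68.4%, no CTCF in either list at 17.8% and a TSS at 39.6%. The pre-B-leaning sites had pre-B CTCF at 98.0%, no CTCF at 0.784% and a TSS at 13.4%. The sites between them stood at 90.8%, 5.74% and 22.9%. Both CTCF lists are from B-lineage cells, so a site bound by CTCF only in thymocytes would be counted here as lacking it.

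The CTCF consensus was found at 2 mismatches or fewer on either strand in 40.7% of the pre-B/DP sites (4615), against 51.8% of shared sites, 32% of all joined sites and 4.14% of windows 2000 bp away. The value is set by the limit, at 14.6% with 1 mismatch and 79.3% with 3, where windows 2000 bp away held it at 0.459% and 30.2%. It was found at 45.4% of those with pre-B CTCF and 5.30% of those without CTCF. Next, 6 short motifs were searched on both strands in the same 300-bp windows. At TSS sites without CTCF, the ETS motif CCGGAAG was in 16.03% and the GC box GGGCGG in 48.1%, against 11.005% and 36.2% of TSS sites with pre-B CTCF and 4.22% and 15.7% of all joined sites. At TSSs without CTCF, CAGCTG was in 21.1%, CAGGTG in 20.3% and GAGGAAG in 14.6%, against 17.7%, 25.3% and 11.8% of TSS sites with pre-B CTCF. Away from TSSs, the ETS motif was in 5.84% of sites without CTCF and 1.78% of those with pre-B CTCF, and the GC box in 15.2% and 7.24%. There the E box CAGCTG was in 38.1% of sites without CTCF (150 of 394, interval 33.3 to 43.1%), 16.9% of sites with pre-B CTCF and 20.5% of all joined sites. The motif GAGGAAG, a core that PU.1 binds, was in 21.6% of them, against 10.5% and 13.5%. The E box CAGGTG was in 35.3% of the 394 sites, 29.6% of sites with pre-B CTCF and 29.1% of all joined sites, and the RUNX motif TGTGGTT in 11.9%, 9.40% and 9.35%. At TSSs the RUNX motif was in 5.26% of sites without CTCF and 5.45% of those with pre-B CTCF. In windows 2000 bp from the 394 sites the shares were 17.0% for CAGCTG and 10.2% for GAGGAAG. These windows were poorer in GC, with a median of 46.7% against 52.5% at the sites, and a match is only a match of letters.

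The antigen receptor loci held 60 pre-B/DP sites. Calls there served as a check of the pre-B and DP labels, since the deposited libraries hold no gene expression. The DN label was not checked in this way. At Igκ 58 sites were called in pre-B cells alone and 0 in DP thymocytes alone, while at TCRα/δ 0 were called in pre-B cells alone and 125 in DP thymocytes alone. In the same order, the counts were 5 and 0 at Igλ, 0 and 20 at TCRβ and 0 and 3 at TCRγ. Igh was mixed, with 38 and 23. Pre-B/DP sites, 24.9% of joined sites over the genome, were 37 of 120 sites at Igh, 19 of 180 at TCRα/δ, 2 of 62 at Igκ, 1 of 31 at TCRβ, 1 of 7 at TCRγ and none of 5 at Igλ. Of sites with a pre-B and a DP peak, 63.8% of 58 lacked a DN peak at Igh, 44.2% of 43 at TCRα/δ, 50% of 4 at Igκ, 16.7% of 6 at TCRβ and 25% of 4 at TCRγ, against 57% over the genome.

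At Igh, 37 of 120 sites were pre-B/DP sites (30.8%, interval 22.7 to 39.9%) beside 21 shared sites, where the share over all joined sites was 24.9%. The median percentiles were 49.96 in the pre-B list and 57.7 in the DP list, close to those of all pre-B/DP sites. A CTCF peak of pre-B cells was at 36 of the 37. The consensus was found at 31, and all 31 matches were on the plus strand, where the pre-B/DP sites of the whole genome had 2427 matches on the plus and 2188 on the minus strand. The V region holds related copies, and 14 of the 31 had the same 12 bases, so these matches are not independent. The exception without CTCF, chr12:114661376-114664083, lay 435 bp from Ighm, the µ constant region gene, and had percentiles of 7.68 in the pre-B list and 95.2 in the DP list. The site 62165 bp from Ighm, shown above, had 55.4 and 73.0 and a DN peak 1885 bp away. The highest pre-B percentile in the locus, 84.0, was at chr12:114835186-114835930, which had 35.7 in DP thymocytes.

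At TCRα/δ all 19 pre-B/DP sites ranked higher in DP thymocytes, with pre-B percentiles from 0.121 to 35.7 and DP percentiles from 52.2 to 91.1. The medians were 10.4 and 72.0, so most of these sites rested on pre-B peaks near the end of the pre-B list. The locus has repeated segments in C57BL/6 mice, and reads that matched a few places were kept by the authors. In 3 pairs of sites both scores were identical in the 2 copies, 124.49 and 800.3 in the pair of highest rank, and the 112 bases around the motif were the same in each pair. The sequence shown above for Trav3d-3 is therefore also that of the site near Trav9n-4 (chr14:53902943-53903653), and the 2 calls are not independent. At Igκ the 2 sites (chr6:70663005-70663483 and chr6:70664218-70664764) lay between the V and J genes, had pre-B percentiles of 67.5 and 77.4 and DP percentiles of 53.5 and 50.6, and both overlapped CTCF in both lists. The TCRβ site near Trbv29 had 19.2 and 74.1, and the TCRγ site had 43.4 and 17.9.

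**Figure D4:**
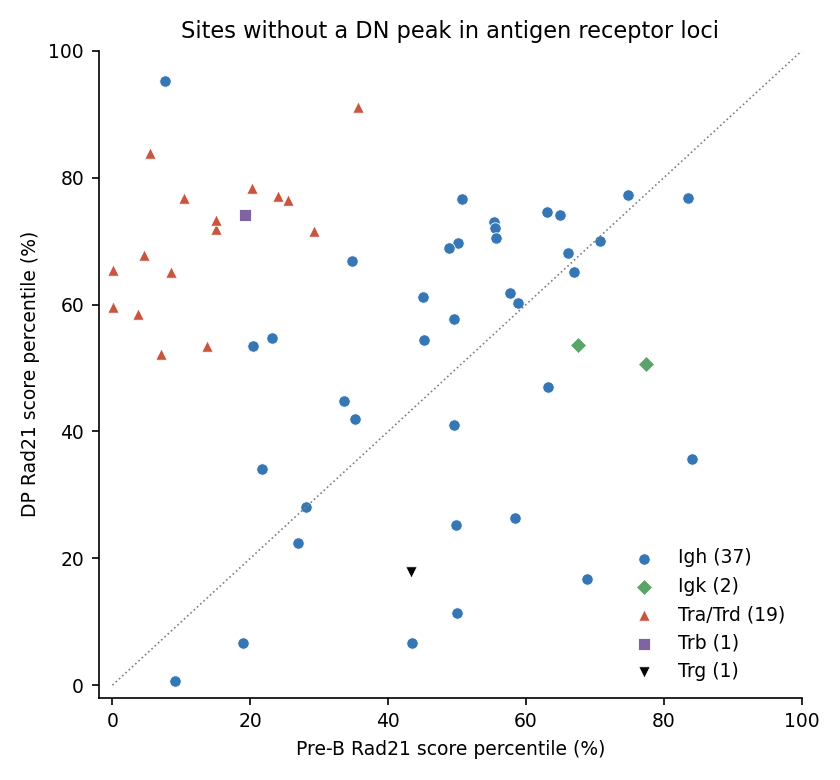
Pre-B (x axis, %) and DP (y axis, %) Rad21 score percentiles of each pre-B/DP site in the antigen receptor loci, with the number of sites in each locus in brackets and a dotted line where the 2 are equal. All 19 TCRα/δ sites lie above the line, with pre-B percentiles up to 35.7, while the 37 Igh sites lie on both sides of it.

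Genes of lymphocyte development, recombination and the cell cycle were examined from lists. A pre-B/DP site lay within the gene or 10 kb of it for 38.2% of all 21281 protein-coding genes, and for 54.4% of the 14950 with any Rad21 site. Among transcription factors and receptors shared by early B and T cells, 16 of 19 genes had such a site, as did 16 of 19 genes of recombination and receptor signalling, 12 of 16 of the cell cycle and survival, 9 of 14 of cohesin and CTCF, 12 of 19 of the B lineage, 9 of 22 of the T lineage and 15 of 39 Hox genes. The 15 Hox genes rested on 6 distinct sites, since neighbouring Hox genes share them. The lists also differed in median gene length, with 64.4 kb for recombination and signalling, 57.3 kb for the shared factors, 44.6 kb for cohesin and CTCF, 24.4 kb for the T lineage, 21.9 kb for the cell cycle, 20.3 kb for the B lineage, 4.06 kb for Hox and 15.6 kb for all genes. The part of gene length in these counts was not tested. With 50 kb around each gene, 34 of 39 Hox genes (87.2%) and 62.6% of all genes had a site. At the TSS itself a pre-B/DP site lay at 11 of 19 shared factors, 10 of 19 recombination and signalling genes, 6 of 16 cell cycle and survival genes, 6 of 19 B lineage genes, 4 of 14 cohesin and CTCF genes, 4 of 22 T lineage genes and 4 of 39 Hox genes. The share was 12.9% of all genes and 18.3% of those with any Rad21 site.

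Among the factors shared by B and T cells, wide sites lay at several starts. Myb, a factor of early lymphoid cells, had a site of 4192 bp with a pre-B score of 322 and a DP score of 3129, at a pre-B percentile of 67.7. That DP score is above 3100, the value at which exactly 28 DP peaks stand. Since 3100 can be a ceiling of the MACS score, the exact DP rank of the Myb site is not read. Satb1, a chromatin organiser of thymocytes, had 14.8 in the pre-B list and 99.7 in the DP list, and Ets1 had 41.5 and 98.0. Ikzf1, which encodes Ikaros, had 33.4 and 89.4. Id2, an inhibitor of E proteins, ranked high in both, at 88.7 and 84.5, and lay 2092 bp from a DN peak. Foxp1, a factor needed for early B cells, held 10 pre-B/DP sites within 10 kb, 2 of them at a TSS, and no shared site.

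In the recombination list, Rag2 encodes the partner of RAG1 in the recombinase, and its TSS had no CTCF and percentiles of 17.5 in the pre-B list and 87.9 in the DP list. The nearest DN peak was 26589 bp away. All of these cells came from RAG-deficient mice, and no pre-B/DP site lay within 10 kb of Rag1. Among the genes of DNA end joining in that list, the starts had 26.1 and 51.3 at Prkdc, 52.4 and 26.9 at Xrcc5, and 28.3 and 76.2 at Dclre1c, which encodes Artemis. Xrcc6 and Lig4 also had a site at a start, Nhej1 had 2 sites with none at its start, and Xrcc4 had none within 10 kb. The Prkdc site also lay at the start of the neighbouring gene Mcm4.

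Among cell cycle and survival genes, the start of Bcl2l11, which encodes the death factor BIM, ranked highest, at 92.4 in the pre-B list and 86.7 in the DP list. One of 2 sites at Cdk6, a kinase of G1 phase, had 81.1 and 76.6. Mcl1, a survival factor, had 0.699 and 84.8. In the cohesin list, the start of Nipbl, the cohesin loader, had 50.1 and 83.5, and that of Ctcf itself 7.89 and 78.4.

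In the B lineage list, the start of Foxo1, a factor that activates the Rag genes, had 49.7 in the pre-B list and 93.9 in the DP list. The start of Irf4, a factor of the pre-B stage, had 71.0 and 0.0708, with a DP score of 57.8 at the end of the DP list, while the other 2 sites of the gene had 36.9 and 77.9, and 36.5 and 78.6. The site assigned to Vpreb1, part of the surrogate light chain, had 61.7 and 83.0 and also lay at the start of the neighbouring gene Top3b. In the T lineage list, Cd247, the ζ chain of the receptor, had 70.3 and 82.8, and Tox, a factor of thymocyte selection, had 83.5 and 75.7. Pax5 of B cells, and Cd8a, Gata3 and Bcl11b of T cells, had no pre-B/DP site within 10 kb. Leaving out Hox genes, 31 of the 44 sites at list gene starts ranked higher in DP thymocytes, and 24 of the 44 overlapped pre-B CTCF. Over all 2777 pre-B/DP sites at TSSs, 66.0% ranked higher in the DP list and 75.3% overlapped pre-B CTCF.

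**Figure D5:**
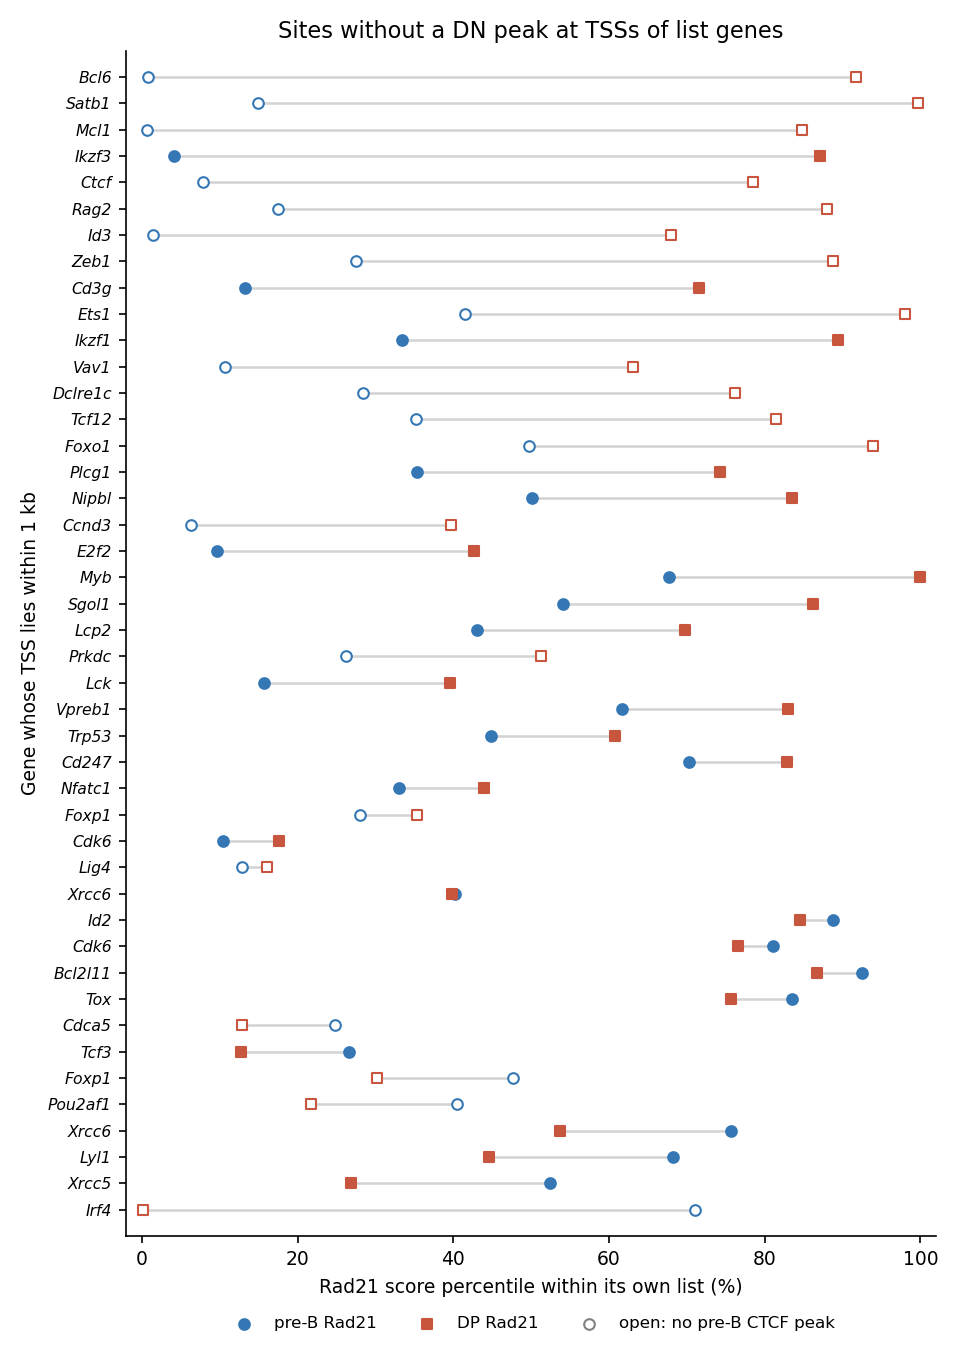
Pre-B (blue circles) and DP (red squares) Rad21 score percentiles (x axis, % of the own list) of each pre-B/DP site within 1 kb of the TSS of a list gene (y axis), ordered by the difference, with Hox genes left out and open symbols where no pre-B CTCF peak overlapped. The DP percentile is the higher one at 31 of 44 sites, from Bcl6 at the top, at 0.751 and 91.7, while Irf4 at the bottom has 71.0 and 0.0708.

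Pre-B/DP sites were spread over all 19 chromosomes. The share of pre-B and DP sites without a DN peak ran from 53.7% on chromosome 18 to 60.4% on chromosome 16. In 838 bins of 1 Mb with at least 10 such sites the median share was 58.3%, the lowest 8.33% and the highest 92.9%. The highest bin, chr7:13000001-14000000, held 13 pre-B/DP sites among 14, near Lig1 and several zinc finger genes, and its sites had a median lower percentile of 19.8. The lowest, chr16:11000001-12000000 near Litaf and Snx29, held 1 among 12 with a median lower percentile of 76.3. The bin with Nkd2 and Tert on chromosome 13 held 1 among 10, at a median of 84.5. There were exceptions to this order on both sides. The bin chr16:58000001-59000000 near St3gal6 held 12 pre-B/DP sites among 13 at a median of 53.1, and the bin chr13:94000001-95000000 near Arsb held 2 among 10 at a median of 50.4.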

How the data were processed

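Peaks called from 5 ChIP-seq libraries (Rad21 in pre-B, DN and DP cells, plus CTCF in pre-B and in IL7-grown pro-B cultures) were used. As their methods and labels state, the authors aligned reads to mm9 with Bowtie (0.12.9 in the submitters' processing notes), kept reads matching a few places, and called confident peaks of each library against the input of the same cells with MACS (1.4.2). The deposited files give each peak's position and MACS score, which reflects its p-value against input and grows with depth. The number of reads is unknown, and sites were ranked only within a list, over all of its peaks unless an alternative shortened the list.

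Peaks on chromosomes 1 to 19 were joined at 1 bp of overlap, and the best peak of each library gave the rank of a site. A site was at a TSS if within 1 kb of a transcript start in GENCODE vM1 (NCBIM37, the same assembly as mm9), and otherwise placed by its midpoint. Sequence came from 300 bp around the midpoint. Of the names in the 7 gene lists, 4 were not found on these chromosomes of the annotation. Named were the 20 sites highest in the lower of the 2 percentiles, sites in the antigen receptor loci, sites at TSSs of list genes, the extreme 1 Mb bins and the sites at the ends of the lists. The members and lists were chosen with earlier results of these data known. No test was run, since each condition has 1 library. Shares carry exact Clopper-Pearson 95% intervals. Splits by CTCF absence, GC content and width were added after the data had been seen. Alternatives were a score minimum, lists of equal length, a stricter overlap, other windows, other mismatch limits and ranking by 1 list. The scripts were tested on simulated peaks. Tools were samtools 1.23.1 and Python 3.11.15 with the packages matplotlib 3.10.9, pysam 0.24.0, scipy 1.17.1 and numpy 2.4.6.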

Additional observations from a re-analysis of the deposited data

How the results depend on the processing

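With peaks scored at least 100 there were 7478 pre-B/DP sites, 23.5% of all joined sites and 51.8% of those with a pre-B and a DP peak, with pre-B CTCF at 95.01%, CTCF of IL7-cultured pro-B cells at 96.2%, a TSS at 21.5% and median percentiles of 47.4 in the pre-B list and 47.0 in the DP list. When the 2 longer lists were cut to the DN list's length there were 973, 6.48% and 16.2% of those totals, with CTCF at 99.3% in either list, a TSS at 22.5% and median percentiles of 41.3 and 35.0. In this setting and the one before it, percentiles were taken anew within the reduced lists. They are not on the scale of the medians of 48.1 and 51.0 in the deposited lists. Limiting the pre-B list alone left 2633 and the DP list alone 2315. Asking for no DN peak within 1 kb gave 24.4% and 55.8%. CTCF peaks scored at least 100 overlapped 84.4% (pre-B) and 87.3% (IL7). A TSS window of 2.5 kb held 31.8%. The consensus was in 14.6% at 1 mismatch, 79.3% at 3, and 49.0% when whole sites were searched. With 50 kb around genes, 62.6% of all coding genes, 84.2% of B lineage, 77.3% of T lineage, 93.8% of cell cycle and 87.2% of Hox genes had a site. Ranking by the pre-B list alone, 72.3% lacked a DN peak between the 50th and 60th percentiles and 9.73% above the 90th, and by the DP list alone 75.2% and 10.9%. The number of pre-B/DP sites thus depended strongly on list length.

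No paired analysis was possible because each condition had 1 library. No difference was therefore set against the spread between animals. Read depth was unknown, so the short DN list and weaker DN binding cannot be told apart, and ranks within lists do not compare amounts of Rad21 between cells.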
